A study of Mus musculus with 6 samples.

Results

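Genes of the Notch pathway were examined in cultured smooth muscle cells of the mouse aorta, with and without the LIM-only adaptor protein FHL2. The 10 genes are the receptors Notch1, Notch2 and Notch3, the ligands Jag1 and Jag2, and the target genes Hes1, Hey1, Hey2, Heyl and Nrarp. They were taken as every probe whose platform symbol is one of these names, which gave 12 of the 45281 probes of an Illumina expression beadchip. Wild-type and FHL2-knockout cells, both on the C57Bl/6 strain, had been grown to confluence and kept in serum-free medium for 48 h before RNA was isolated. Each genotype had 3 culture batches, each of cells pooled from 3 aortas, so that 9 mice stood behind a genotype, and each batch was measured on 1 array. No other allele, treatment or time point was part of the design. The sources used here do not give the age or sex of the mice, nor how the knockout was made.

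Notch receptors are cut after a ligand on a neighbouring cell binds them. The freed intracellular part then joins the DNA-binding protein RBPJ and coactivators of the Mastermind family in the nucleus and switches on target genes, of which the HES and HEY families code for transcriptional repressors and NRARP for a protein that limits the Notch complex. In arteries, NOTCH3 is the receptor known best in smooth muscle, JAG1 is a ligand made by both endothelium and smooth muscle, and the pathway takes part in the maturation of the arterial wall.

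Of the 10 genes, 7 had a probe detected on enough arrays to be tested, and in these knockout cells the pathway's genes did not move one way. Notch1 fell 2.29-fold and Hey1 1.69-fold, while Jag1 rose 1.82-fold and Hey2 1.42-fold. Nrarp was also called higher, but its wild-type values lay at background, detected on 1 of 3 arrays. Notch3 and Hes1 did not pass the test. The probes of Notch2, Jag2 and Heyl were not well above background in either genotype.

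The promoters of 4 of the 5 called genes, Hey2, Nrarp, Jag1 and Notch1, are shown because RBPJ, HES and HEY proteins are known to act on promoters through short sites. Of the 10 genes, 7 were matched in the RefSeq promoter table of build GRCm38.p6, and Hes1, Hey1 and Heyl were not searched here. The windows run from 250 bases before the annotated start to 10 after it. They lie at chr10:30842774-30843033 on the minus strand, chr2:25180508-25180767 on the plus strand, chr2:137116511-137116770 on the minus strand and chr2:26503813-26504072 on the minus strand. Capitals mark 3 searched motifs, read on both strands. The RBPJ core is TGGGAA, which reads TTCCCA on the other strand. The E-box is CACGTG, the same on both strands. The other site type bound by HES and HEY proteins is CACGCG, which reads CGCGTG on the other strand. Matches to different motifs did not overlap in these windows.
Hey2: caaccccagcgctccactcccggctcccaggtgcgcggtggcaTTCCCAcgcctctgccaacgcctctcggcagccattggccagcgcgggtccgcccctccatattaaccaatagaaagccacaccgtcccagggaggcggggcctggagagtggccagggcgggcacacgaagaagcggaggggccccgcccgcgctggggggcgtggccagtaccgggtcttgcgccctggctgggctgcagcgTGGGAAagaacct
Nrarp: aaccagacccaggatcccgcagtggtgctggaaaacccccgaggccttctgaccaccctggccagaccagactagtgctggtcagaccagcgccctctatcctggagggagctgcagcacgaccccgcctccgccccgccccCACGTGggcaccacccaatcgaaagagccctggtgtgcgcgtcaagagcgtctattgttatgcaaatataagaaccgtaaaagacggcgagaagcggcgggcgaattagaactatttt
Jag1: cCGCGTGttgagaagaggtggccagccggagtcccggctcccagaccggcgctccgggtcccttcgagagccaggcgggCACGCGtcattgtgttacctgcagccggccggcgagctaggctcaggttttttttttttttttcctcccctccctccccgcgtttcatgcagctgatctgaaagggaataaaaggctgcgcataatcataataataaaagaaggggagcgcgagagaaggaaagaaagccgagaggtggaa
Notch1: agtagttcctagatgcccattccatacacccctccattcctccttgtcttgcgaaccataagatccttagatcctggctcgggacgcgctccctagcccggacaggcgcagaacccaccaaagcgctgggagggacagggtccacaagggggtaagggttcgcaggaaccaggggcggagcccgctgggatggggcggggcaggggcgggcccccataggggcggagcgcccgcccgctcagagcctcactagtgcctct
The Hey2 window held the RBPJ core at -207 and again at -3, where it crosses the start, counting the start as 1 and the base before it as -1. The E-box stood in the Nrarp window at -108. In the Jag1 window CGCGTG stood at -249 and CACGCG at -171, and the Notch1 window held none of the 3 motifs. The RBPJ core was in 22.4% of all 32851 promoter windows of this length, the E-box in 6.34% and CACGCG in 7.97%. Such matches describe the letters of the windows only.

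The arrays gave between 14844 and 16115 detected probes each, with median raw intensities of 116 to 172 and wild-type replicate 2 the dimmest. After normalization, arrays correlated at 0.985 to 0.988 within a genotype and at 0.934 to 0.939 between genotypes. The brighter Fhl2 probe was 23.8-fold lower in knockout cells (limma adjusted p = 9.66e-07). It was still detected on all 3 knockout arrays, at log2 values of 6.70, 6.65 and 7.04. The dimmer Fhl2 probe was detected on all 3 wild-type and on 0 knockout arrays. Smooth muscle identity was read from 10 marker genes: smooth muscle alpha-actin (Acta2) had log2 means of 14.61 ± 0.20 (SD, n = 3) for wild-type and 15.12 ± 0.08 (SD, n = 3) for knockout arrays, and Tagln and Smtn were detected on all arrays. Calponin (Cnn1) was detected on 0 of the 6 arrays, the 5 probes of Myocd on at most 1, and Myh11, the myosin of mature smooth muscle, on 3. Of the 10 genes, 7 were tested, 2 were higher and 1 lower in knockout cells. The lower one was the myosin light chain kinase Mylk, at -0.56 by its brightest probe (limma adjusted p = 0.00715) and 0.17 by a dimmer one (adjusted p = 0.546). The summed normalized intensity of the list lay between 22497 and 28804 on wild-type and between 34951 and 38821 on knockout arrays, of which Acta2 made up 94.8% to 96.7%.

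Markers of other cells also differed between the genotypes, and those values stand beside the Notch results below. Of 11 endothelial markers, 7 were tested, 0 were higher and 5 lower, and these 5 were detected on wild-type arrays alone. The summed intensity of the 11 markers was 1382 to 1993 on wild-type and 308 to 378 on knockout arrays. The brightest gene in this sum was Emcn in wild-type (log2 mean 10.06) and Eng in knockout cells (log2 mean 7.75). Every wild-type array and 0 knockout arrays detected Pecam1, Cdh5, Emcn, Esam and Icam2. Eng and Kdr, also tested, did not pass and read higher in knockout cells. Eng was detected on all 6 arrays, with a log2 change of 0.69 ± 0.24 (SE, limma adjusted p = 0.0608). Kdr was detected on 1 wild-type and 3 knockout arrays, with a log2 change of 0.30 ± 0.20 (SE, limma adjusted p = 0.303). Cldn5 was detected on 0 of the 6 arrays and Vwf on 2. Of 8 epithelial and mesothelial markers with a probe, 4 were tested, 2 of them detected on knockout arrays alone, and all 4 were higher, with sums of 94.9 to 132 against 2609 to 2804. Of 6 fibroblast markers tested, 2 were higher and 3 lower, with sums of 5790 to 6288 against 1227 to 1306. These sums follow their brightest genes, Pdgfra and Scara5, which were 5.58-fold and 6.04-fold lower in knockout cells. The dimmer Pi16 and Dpep1 were 4.15-fold and 1.94-fold higher. Clec3b, the third lower gene, was detected on 3 wild-type and 0 knockout arrays, with a fitted change of -2.56 (limma adjusted p = 2.67e-05). Of 6 pericyte markers, 4 were tested, 1 was higher and 1 lower, with sums of 2355 to 3360 against 3262 to 3541. Rgs5, the brightest of them, did not pass, while the dimmer Mcam was 5.29-fold higher and Cspg4 3.31-fold lower. The 4 kept Xist probes were detected on all wild-type and on 0 knockout arrays. A probe each of the Y-linked genes Eif2s3y and Kdm5d was detected on all 6 arrays and was higher in knockout cells, 2.64-fold and 1.73-fold (limma adjusted p = 5.05e-04 and 0.00403). The wild-type arrays thus read both Xist and Y-linked RNA, and the knockout arrays Y-linked RNA alone of these, and the part of this difference in the results was not tested. In such bulk samples, fewer cells of a type and less RNA per cell cannot be told apart. The part of these marker differences in the change of any Notch gene, higher or lower, was not tested.

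**Figure D1:**
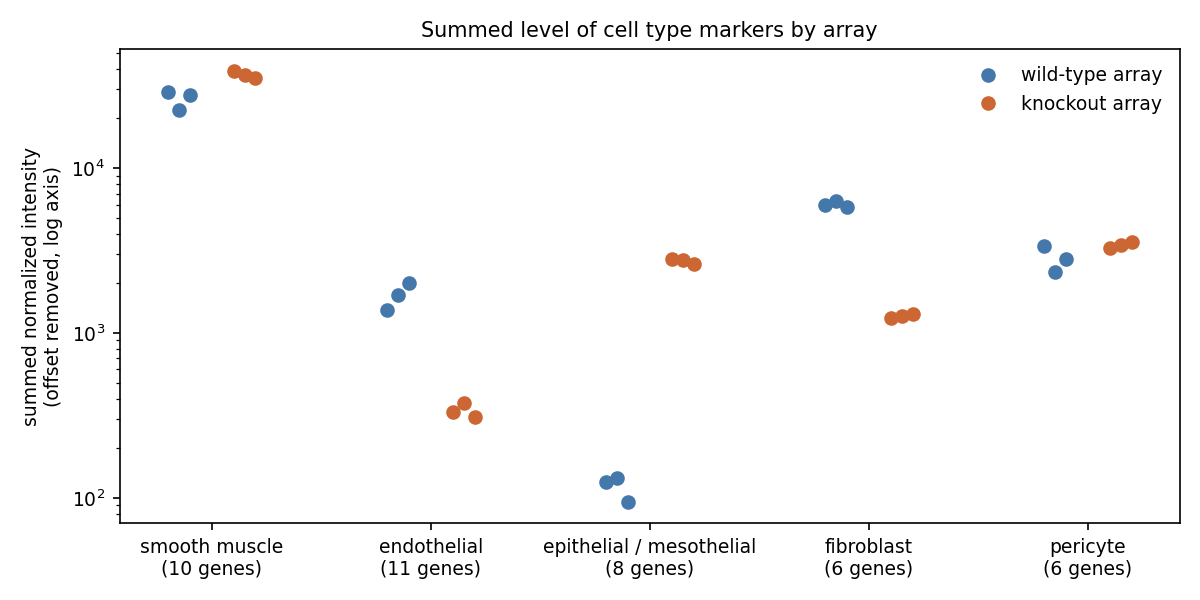
Summed normalized intensity, with the offset removed, of 5 lists of cell type markers (log axis), 1 point per array and 3 arrays per genotype. Endothelial and fibroblast sums were lower on every knockout array. Smooth muscle sums and epithelial and mesothelial sums were higher on every knockout array, and pericyte sums overlapped. The brightest genes of a list weigh most in its sum.

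Values below are normalized log2 intensities, in which 1 unit is a doubling. A probe counts as detected when its deposited detection p is under 0.05, and it was tested when detected on at least 3 of the 6 arrays. An undetected probe does not show that the RNA is absent. Of Acta2, probe ILMN_1236619 was detected on 0 arrays and ILMN_1237242 on 1, while the brightest had log2 means of 14.61 and 15.12. The lowest detected values lay between 5.18 and 5.32. All changes are knockout minus wild-type with the standard error of limma's fit, and adjusted p-values are Benjamini-Hochberg values of that fit over all 15527 tested probes. Among the 9051 genes with a tested probe, each taken by its brightest, 31.3% passed an adjusted p of 0.05, 14.8% higher and 16.5% lower in knockout cells, against 5 of the 7 tested members, 3 higher and 2 lower. One of the 3, Nrarp, passed the filter through the knockout arrays, where it was high. The cell type markers above that were detected in 1 genotype alone likewise passed through the arrays where they were high. The groups did not overlap for the same 5 members, against 47.8% of all genes. The median change was 0.17 over the 7 members and -0.01 over all genes.

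**Figure D2:**
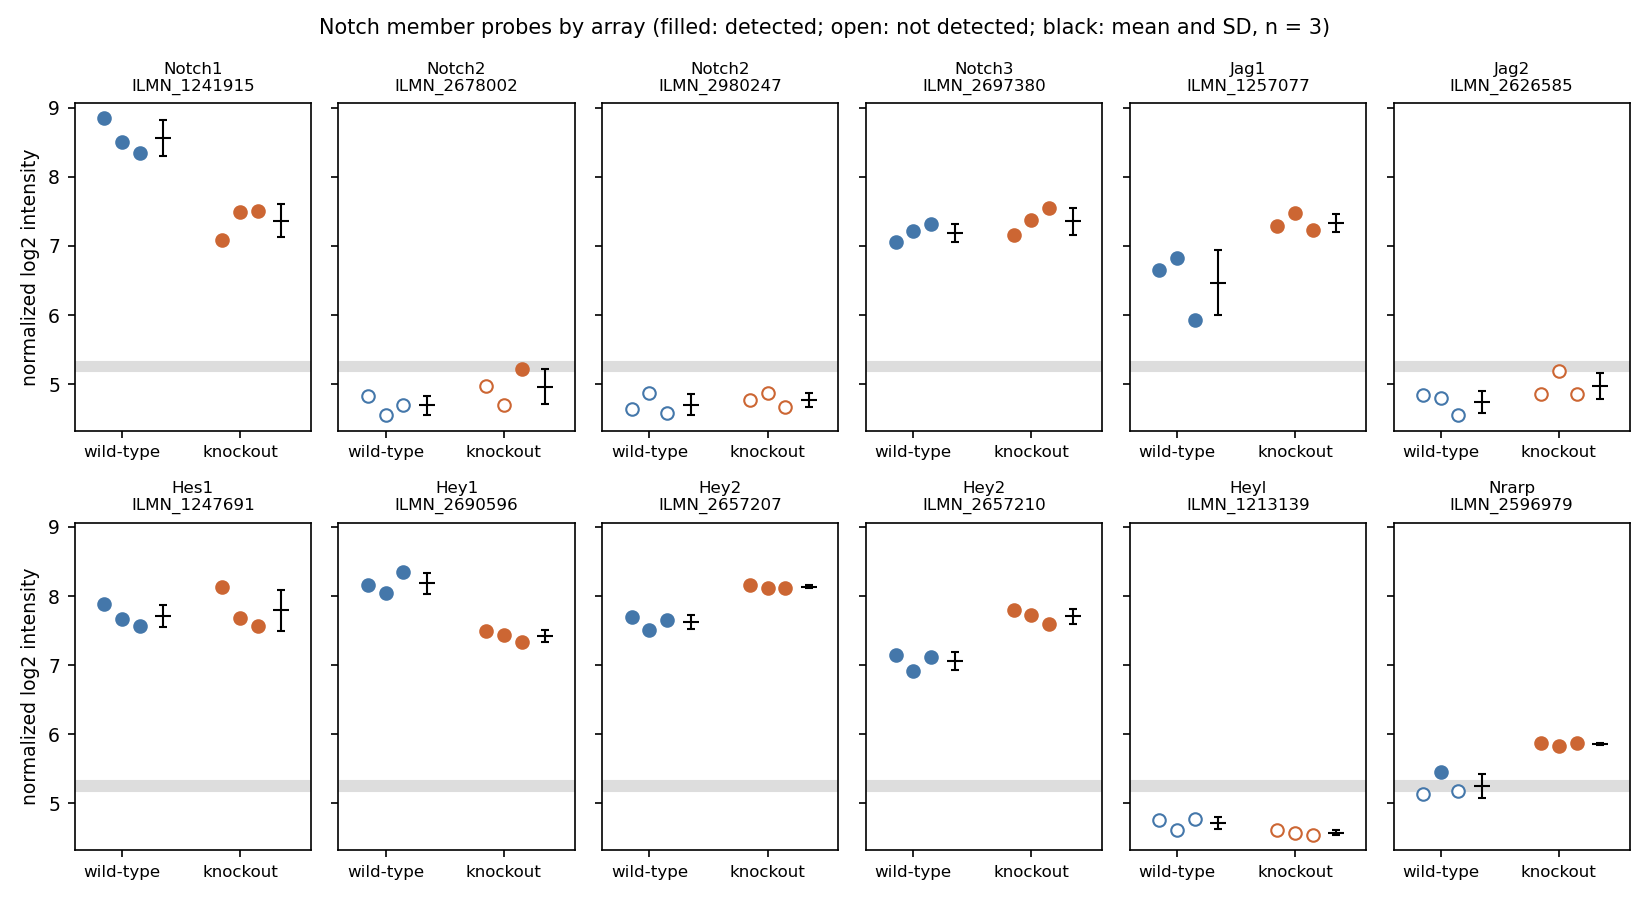
Normalized log2 intensity of the 12 member probes on each of the 6 arrays, with filled points for detected and open points for undetected values, the mean and SD (n = 3) in black, and a grey band from 5.18 to 5.32 for the lowest detected values of the arrays. Notch1 and Hey1 were lower on every knockout array, Jag1, Nrarp and both Hey2 probes were higher, and the probes of Notch2, Jag2 and Heyl lay at or below the band.

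Among the receptors, Notch1 was lower in knockout cells. Notch1, on chromosome 2, codes for a receptor with wide roles in development and in endothelium. Its probe read 8.85, 8.50 and 8.34 in wild-type replicates 1 to 3 and 7.09, 7.50 and 7.51 in knockout replicates 1 to 3. The groups did not overlap, and the highest knockout value lay below the lowest wild-type value. The change was -1.20 ± 0.18 (SE, n = 3 per genotype), or 2.29-fold lower (limma adjusted p = 0.00165). Endothelium is known to express Notch1, and the part of the endothelial markers, whose sums are given above, in this result was not tested.

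Notch3, on chromosome 17, showed no change that passed the test. It read 7.05, 7.21 and 7.31 in wild-type and 7.16, 7.37 and 7.54 in knockout cells. The groups overlapped, and the change was 0.17 ± 0.14 (SE), with a 95% confidence interval of -0.17 to 0.50 (limma adjusted p = 0.436).

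Notch2, a receptor also known in smooth muscle, could not be tested. Its 2 probes had log2 values of 4.55 to 5.22 and 4.58 to 4.87, with raw intensities of 109 to 173 and 118 to 169. Only knockout replicate 3 gave a detected value, for the first of the probes, at a detection p of 0.0470.

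The ligand Jag1 was higher in knockout cells. Jag1 lies on chromosome 2 and codes for the membrane-bound ligand Jagged1. It read 6.65, 6.82 and 5.93 in wild-type and 7.29, 7.48 and 7.23 in knockout cells. Wild-type replicate 3 stood lowest, and the groups did not overlap. The change was 0.86 ± 0.23 (SE), or 1.82-fold higher (limma adjusted p = 0.0223). Its size depended on single arrays: it was 0.60 without wild-type replicate 3 and 1.04 without wild-type replicate 2. Without knockout replicate 2 the adjusted p was 0.0677, and with all 45281 probes tested it was 0.0504. As for Notch1, the part of the endothelial and other cell type markers in this result was not tested. Jag2, the related ligand, had log2 values of 4.56 to 5.19 and detection p-values of 0.0769 to 0.678, so it was not tested.

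The target genes of the HES and HEY families went different ways. Hes1, a repressor that many cell types raise on Notch activation, is on chromosome 16. It read 7.89, 7.66 and 7.57 in wild-type and 8.13, 7.68 and 7.57 in knockout cells. The groups overlapped almost fully, and the change was 0.09 ± 0.17 (SE), with a 95% confidence interval of -0.31 to 0.49 (limma adjusted p = 0.752).

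Hey1, a repressor of the arterial and cardiac HEY group on chromosome 3, was lower in knockout cells. It read 8.16, 8.04 and 8.35 in wild-type and 7.50, 7.44 and 7.33 in knockout cells. All knockout arrays lay below all wild-type arrays. The change was -0.76 ± 0.13 (SE), or 1.69-fold lower (limma adjusted p = 0.00327). Hey1 is also made by endothelium, and as for Notch1 the part of the endothelial markers in the result was not tested.

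Hey2, on chromosome 10, codes for the closest relative of HEY1 and was higher in knockout cells by both its probes. The brighter probe read 7.70, 7.51 and 7.66 in wild-type and 8.16, 8.12 and 8.12 in knockout cells. Its change was 0.51 ± 0.12 (SE), or 1.42-fold higher (limma adjusted p = 0.0125). The second probe read 7.15, 6.92 and 7.12 against 7.80, 7.73 and 7.59, a change of 0.65 ± 0.13 (SE; limma adjusted p = 0.00637). With neither probe did the groups overlap. The part of the cell type marker differences in this result was not tested either. Among the 7 promoter windows searched, only that of Hey2 held the RBPJ core, at the 2 places printed above. The core was in 22.4% of all 32851 windows, and its part in the change of Hey2 was not tested.

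Heyl, the third HEY gene, on chromosome 4, had log2 values of 4.54 to 4.77 and detection p-values of 0.274 to 0.686 and was not tested. Nrarp, the Notch-regulated ankyrin repeat protein on chromosome 2, was higher in knockout cells. It read 5.13, 5.45 and 5.18 in wild-type, detected only in replicate 2, and 5.87, 5.84 and 5.87 in knockout cells, detected in all 3. The groups did not overlap, but the wild-type values lie at background, and the 3 knockout arrays alone met the filter, so that a difference was favoured by the choice of probes. The fitted change was 0.61 ± 0.13 (SE; limma adjusted p = 0.00902), and its size ranged from 0.17 to 0.77 over the processing alternatives. Nrarp did not pass with median scaling between arrays (0.66; adjusted p = 0.0584) or without background correction (0.17; adjusted p = 0.0951).

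**Figure D3:**
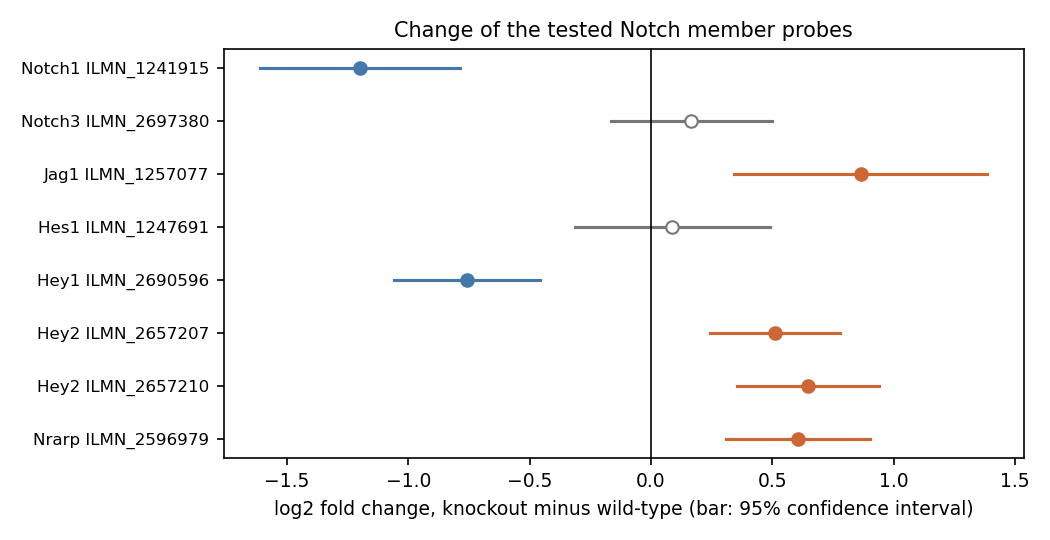
Change of the 8 tested member probes, knockout minus wild-type on the log2 scale, with 95% confidence intervals of the limma fit and filled points for an adjusted p under 0.05. Notch1 at -1.20 and Hey1 at -0.76 lie left of 0, Jag1, Nrarp and both Hey2 probes lie between 0.51 and 0.86, and the intervals of Notch3 and Hes1 include 0.

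The changes of the members were of moderate size. Tested against a fold of 1.5 in place of 0, none of the 7 passed. Notch1 came closest (adjusted p = 0.0595), and for Jag1, Hey1, Hey2 and Nrarp the adjusted p was 0.770 or more.

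**Figure D4:**
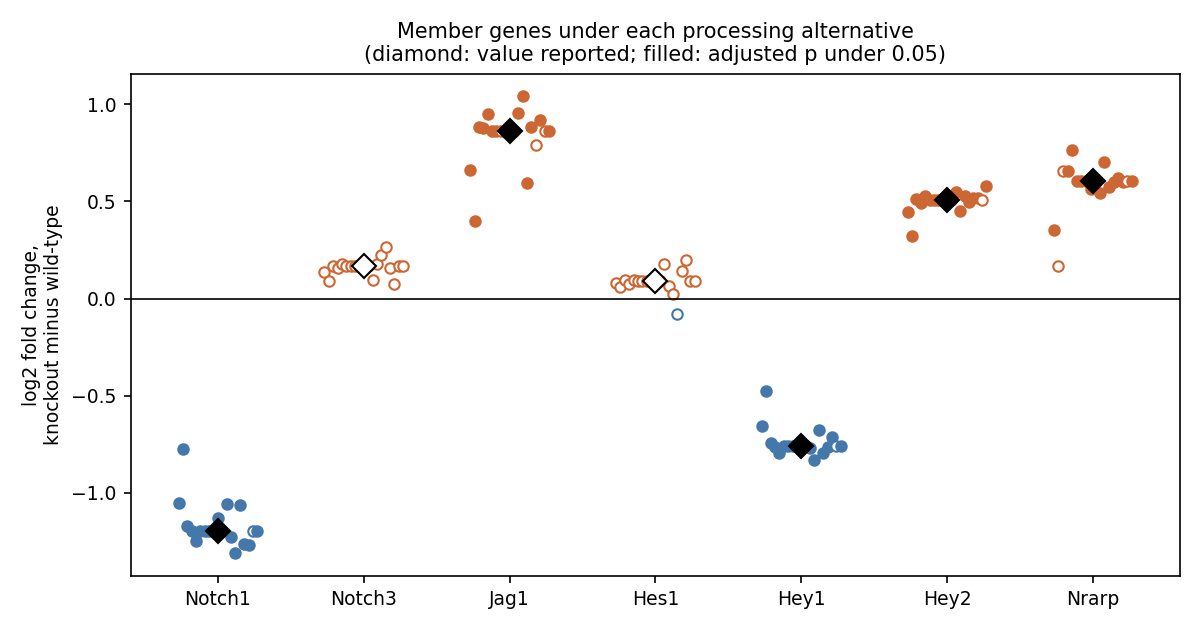
Log2 fold change of the 7 tested member genes (horizontal axis) under each processing alternative, with a diamond for the value reported, and filled symbols for an adjusted p under 0.05. The 5 called genes kept their direction throughout, between -1.31 and -0.78 for Notch1 and between 0.40 and 1.04 for Jag1, and Hes1 crossed 0 once.

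By likeness over the 6 arrays, the genes nearest to Notch1 after centring each gene on its own mean were Robo1, 9130024F11Rik and Sp7, at Euclidean distances of 0.16, 0.19 and 0.20 on the log2 scale. Their changes were -1.30, -1.30 and -1.22. The genes nearest to Jag1 were Plscr2, Arpc2 and Cct5, at distances of 0.22, 0.23 and 0.26, with changes of 0.79, 0.76 and 0.88. The likeness includes the difference between genotypes, which all these genes show.

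Of 81 other genes of the pathway, 74 had a probe and 47 were tested. Among these, 8 were higher and 8 lower in knockout cells, and 31 did not pass, a called share near that of all genes. The median change was -0.03. The groups did not overlap for 28 of the 47, against 47.8% of all genes. For the sets of these genes described next, each of 1 to 10 tested genes, the shares of all genes, 14.8% higher and 16.5% lower, are the background, and no set was tested against them.

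Of the other receptor and ligands, Notch4, the receptor best known from endothelium, fell. It read 6.70, 7.07 and 6.64 in wild-type and 5.27, 5.72 and 6.28 in knockout cells, detected on 2 of the 3 knockout arrays. The change was -1.05 ± 0.25 (SE; limma adjusted p = 0.0154). Delta-like ligand Dll1 was detected on 1 wild-type and 2 knockout arrays and gave 0.35 ± 0.37 (SE; limma adjusted p = 0.532). Dll4, the ligand of arterial endothelium, was detected on 0 of the 6 arrays by its 2 probes.

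Among 4 tested genes of noncanonical ligands, 0 were higher and 2 lower, and these 2 were detected on wild-type arrays alone. Dlk1 is a membrane protein related to Delta that lacks the usual receptor-binding domain. Dlk1 read 10.41, 10.02 and 10.15 in wild-type cells and was not detected in knockout cells, at least 30.5-fold lower. Its fitted change was -5.17 (limma adjusted p = 1.06e-06). Egfl7, a secreted protein of endothelium that can bind Notch receptors, read 8.16, 8.25 and 8.21 in wild-type cells. It was likewise not detected in knockout cells, at least 7.71-fold lower, with a fitted change of -3.30 (limma adjusted p = 4.65e-06). For both genes the wild-type arrays alone met the filter, so that a difference was favoured by the choice of probes. For these bounds a knockout array counted at its lowest detected value, or at the probe's reading where that was higher. The microfibril proteins Mfap2 and Mfap5 gave 0.38 ± 0.15 (SE; limma adjusted p = 0.0968) and -0.01 ± 0.14 (SE; limma adjusted p = 0.968).

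The machinery that cuts the receptor had 2 of 7 tested genes higher and 0 lower, a called share near the 31.3% of all genes. Aph1b, a subunit of gamma-secretase, read 7.97, 7.68 and 7.56 in wild-type and 8.97, 9.00 and 9.06 in knockout cells. It rose by 1.27 ± 0.14 (SE), or 2.42-fold (limma adjusted p = 3.30e-04). Its probe may not tell it from the closely related Aph1c, whose own probe was detected on 0 of the 6 arrays. Nicastrin (Ncstn), which takes up the substrate in the same complex, rose by 0.53 ± 0.13 (SE; limma adjusted p = 0.0149). The subunit Psenen gave -0.32 ± 0.13 (SE; limma adjusted p = 0.112), and the sheddase Adam17 0.36 ± 0.17 (SE; limma adjusted p = 0.145). A dimmer Adam17 probe gave -0.17 ± 0.18 (SE, limma adjusted p = 0.518). Adam10, the other sheddase, was detected on 0 of the 6 arrays.

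Of 8 tested genes for ligand and receptor uptake, 1 was higher and 1 lower. The ubiquitin ligase Mib2, which drives ligand endocytosis, read 10.74, 10.69 and 10.74 in wild-type and 9.89, 9.83 and 9.84 in knockout cells, or 1.83-fold lower (limma adjusted p = 6.96e-04). Neurl1a, a ubiquitin ligase of the neuralized type, rose by 0.80 ± 0.13 (SE; limma adjusted p = 0.00258). Dtx4, a deltex ligase, gave 0.64 ± 0.21 (SE; limma adjusted p = 0.0519), and the Notch inhibitor Numb -0.17 ± 0.11 (SE; limma adjusted p = 0.300). The only tested glycosyltransferase, Poglut1, gave -0.30 ± 0.13 (SE; limma adjusted p = 0.122).

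In the nuclear complex, 0 of 6 tested activator genes passed in either direction, against 31.3% of all genes. Rbpj itself was detected on 0 of the 6 arrays by its 3 probes. Absent RNA and probes that fail to read it cannot be told apart here. The coactivators Kat2b and Ep300 gave 0.38 ± 0.16 (SE; limma adjusted p = 0.119) and -0.30 ± 0.13 (SE; limma adjusted p = 0.130), but a second Kat2b probe rose by 0.83 ± 0.16 (SE; limma adjusted p = 0.00635). Of 7 tested corepressor genes, 1 was higher and 1 lower, against 14.8% and 16.5% of all genes. Tle2, a Groucho-type corepressor recruited by HES proteins, was 2.02-fold lower (limma adjusted p = 0.00213). Tle1 and Tle4 gave -0.28 ± 0.12 (SE; limma adjusted p = 0.128) and -0.41 ± 0.16 (SE; limma adjusted p = 0.101). The probes of Tle1 went different ways, since 2 dimmer ones gave 0.46 ± 0.16 (SE, limma adjusted p = 0.0665) and -0.34 ± 0.13 (SE, limma adjusted p = 0.0787). Cir1, a corepressor that binds RBPJ, gave -0.15 ± 0.14 (SE; limma adjusted p = 0.454) by its brightest probe. Of its 2 dimmer probes, one fell by 0.63 ± 0.16 (SE; limma adjusted p = 0.0195) and the other gave -0.34 ± 0.19 (SE; limma adjusted p = 0.218).

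Fhl1, the LIM-only relative of Fhl2 and source of an isoform that binds RBPJ and represses its targets, was higher in knockout cells. Fhl1 lies on the X chromosome, and the part of the Xist and Y-linked difference between the genotypes in its result was not tested. Its brightest probe read 14.38, 14.40 and 14.47 in wild-type and 14.93, 15.04 and 14.87 in knockout cells. It rose by 0.53 ± 0.12 (SE; limma adjusted p = 0.00990). A second bright probe rose by 0.53 ± 0.12 (SE; limma adjusted p = 0.0118). The third, dimmer Fhl1 probe gave 0.14 ± 0.15 (SE; limma adjusted p = 0.523), and the sources used here do not say which isoforms the probes read.

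Of 10 tested genes reported elsewhere as Notch targets, 3 were higher and 3 lower, against 14.8% and 16.5% of all genes. Efnb2, the ephrin-B2 gene that marks arterial cells, rose 4.27-fold, from 6.19, 6.55 and 5.93 to 8.03, 8.60 and 8.32 (limma adjusted p = 1.74e-04). Cyclin D1 (Ccnd1), which drives entry into the cell cycle, rose 2.63-fold (limma adjusted p = 1.40e-04), and Acta2 1.42-fold by its brightest probe (limma adjusted p = 0.0277). The 3 other tested Acta2 probes rose 1.79-fold, 1.90-fold and 2.16-fold (limma adjusted p = 0.00213, 0.00529 and 0.00113). The transcriptional repressors Snai2 and Snai1 were 3.63-fold and 2.37-fold lower (limma adjusted p = 4.37e-05 and 5.80e-04).

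Sox9, a transcription factor of cartilage, fell by 0.40 ± 0.13 (SE; limma adjusted p = 0.0472), while its second probe gave -0.17 ± 0.12 (SE; limma adjusted p = 0.322). Nfkb2 and Myh11 gave 0.52 ± 0.21 (SE; limma adjusted p = 0.0977) and 0.74 ± 0.31 (SE; limma adjusted p = 0.114). Of 7 further HES-related genes, 2 were tested. Bhlhe40, a repressor related to the HES family and also a clock gene, rose 2.51-fold (limma adjusted p = 0.00417), and Hes6 gave 0.37 ± 0.14 (SE; limma adjusted p = 0.0868).

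**Figure D5:**
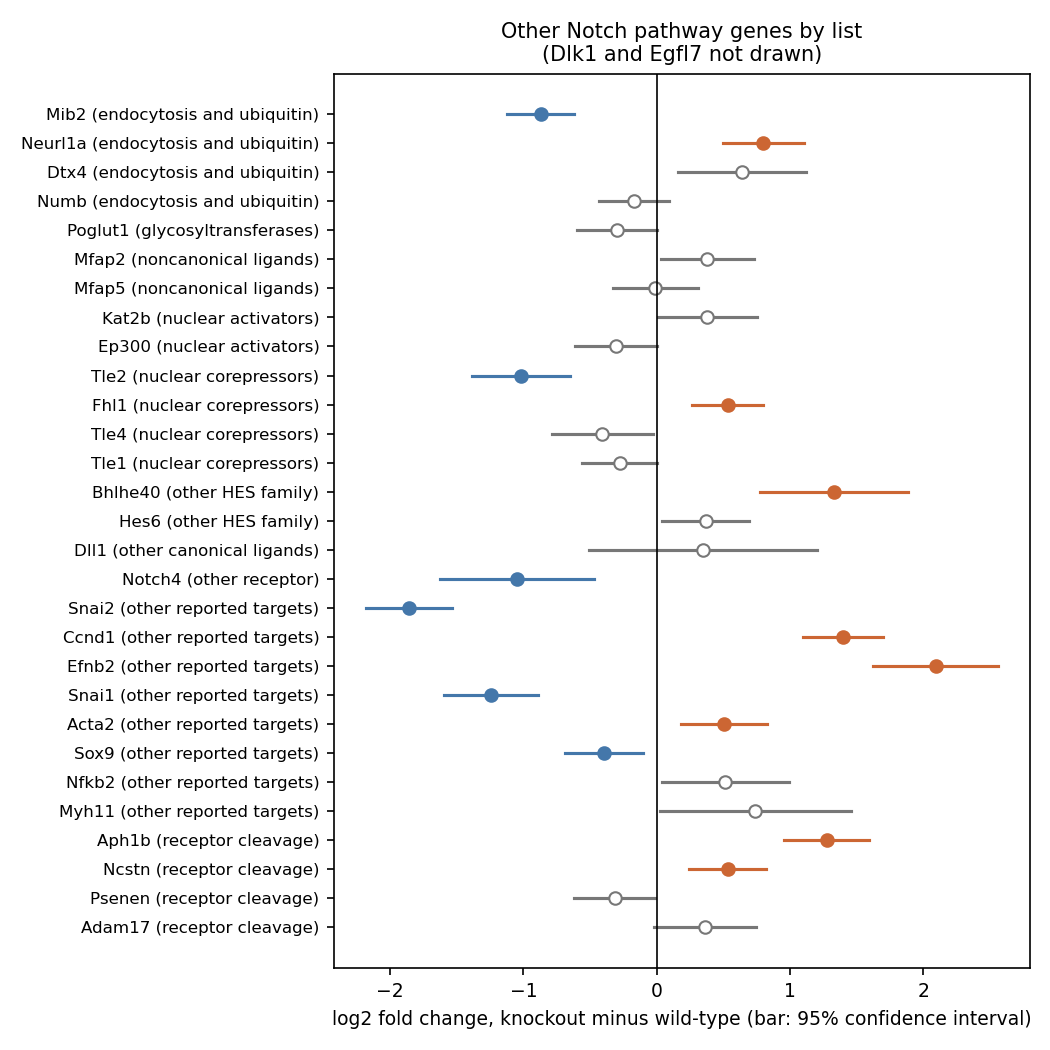
Change of the other named pathway genes on the log2 scale, knockout minus wild-type, with 95% confidence intervals of the limma fit, filled points for an adjusted p under 0.05, and the list of each gene in brackets. Dlk1 and Egfl7, not detected in knockout cells, are not drawn. Efnb2 at 2.09 and Snai2 at -1.86 lie farthest from 0.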

How the data were processed

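Gene expression was measured in 3 wild-type and 3 FHL2-knockout cultures on 1-colour Illumina beadchips with biotin-labelled cRNA. The authors deposited 1 bead intensity per probe and array, without background subtraction or scaling, as the values show, and beside it a detection p-value, per the file headers. The authors also deposited a log2 matrix whose columns share nearly the same quantiles. Of tools, GenomeStudio 2011.1, limma 3.10.2 and R 2.14.0 are listed, per the submitters' processing notes, with no role.

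Intensities were normalized here in R 4.3.3 with limma 3.58.1 by neqc, which corrects background by normexp from the detection p-values, adds an offset of 16, equalizes quantiles and takes log2. The offset shrinks changes of dim probes. Probes with a detection p under 0.05 on at least 3 of 6 arrays (15527 of 45281) were tested with lmFit and eBayes and adjusted by Benjamini-Hochberg. Symbols came from the platform annotation, updated by gene identifier through RefSeq GRCm38.p6, and 34885 probes had 1 symbol, 18 had several and 10378 had none. Simulated data with known changes were used to test the fit. At 3 arrays per group, the number of arrays limits the precision.

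The members and lists were chosen with earlier results of these data known. Named were Fhl2, all members, every called gene of the other pathway lists and up to 2 uncalled ones per list, and the 3 genes nearest to the called member with the largest change in each direction. Further Kat2b, Fhl1, Sox9 and Cir1 probes were named because their calls differed, and undetected genes for their role. Further Acta2, Mylk, Tle1 and Adam17 probes were named after their values were seen. So were the markers Eng, Kdr, Pdgfra, Scara5, Clec3b, Pi16, Dpep1, Rgs5, Mcam and Cspg4. Alternatives covered background, normalization, the authors' matrix, filters, variance model, array weights, replicate block, each array left out, a fold threshold and probe averaging. No slide or scan batch is given in the sources used here.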

Additional observations from a re-analysis of the deposited data

How the results depend on the processing

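Tested against a fold of 1.5, the member genes called went from 3 to 0 higher and from 2 to 0 lower, the other pathway genes from 8 to 3 higher and from 8 to 4 lower, and all probes called from 4596 to 1110. This follows from the stricter hypothesis. With detection required on all 6 arrays, 5 other pathway genes were lower, since Dlk1, Egfl7 and Notch4 could not be tested. Hes1, never called, ranged from -0.080 to 0.20 when arrays were left out, and was below 0 without knockout replicate 1. Leaving out each array gave 2 to 3 member genes higher and 2 lower, 7 to 9 and 6 to 8 other pathway genes, and 3474 to 4307 probes called. Without background correction the changes shrank, to -0.78 for Notch1 and 0.40 for Jag1, and both still passed. Same-numbered arrays deviated together at correlations of 0.12, 0.07 and 0.06, and every array correlated best with its own number, a hint from the data only. Each genotype was first centred on its own mean, so these correlations are tied to one another and say little about whether same-numbered batches belong together. The fit with the replicate number as a block called 3 member genes higher and 2 lower, 10 and 7 other pathway genes, and 4405 probes. Notch1, Hey1 and Hey2 passed under 18 of 19 alternatives each, Jag1 under 16 of 19 and Nrarp under 15 of 18, with the fold threshold among the exceptions for each. The cause of the Jag1 and Nrarp calls lost under single alternatives was not tested. Dim probes near 5.3 limit what can be said of Notch2, Jag2, Heyl and Nrarp.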
